A study of Mus musculus with 6 samples.

Results

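*Synpo*, *Actn1*, *Acta2* and *Arhgef2*, 4 genes linked to the actin cytoskeleton, were followed in the hearts of diabetic mice treated with FGF1ΔHBS or vehicle, as 4 of the 4132 genes in the table analysed here. They were taken by gene name after the values of these same libraries had been seen, so the difference between vehicle and FGF1ΔHBS is a description for them, and no p-value of theirs is given. All mice carried the genotype lepr-/- (*db/db*, which lack a working leptin receptor and become obese and diabetic). From 10 weeks of age, 3 mice received FGF1ΔHBS, the FGF1 variant of the labels, at 0.5 mg/kg by intraperitoneal injection on alternate days for 16 weeks, and 3 mice received saline (vehicle) in the same way. Hearts were taken at 26 weeks, and 1 library of poly(A) RNA was made from each mouse. No lean or non-diabetic hearts were sequenced in these samples, so the levels cannot be set against a healthy heart. Levels are in FPKM, which scales the fragments on a gene by transcript length and by library size.

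Actin filaments carry the contractile force of muscle and form the stress fibres of other cells. RhoA, a small GTPase, promotes stress fibres when exchange factors load it with GTP, and actin that has been built into filaments releases cofactors of the transcription factor SRF, which binds CArG boxes in the promoters of many actin and smooth muscle genes. In the heart, cardiomyocytes hold most of the actin as cardiac alpha-actin in sarcomeres, whereas smooth muscle alpha-actin marks the muscle of vessel walls and fibroblasts that have become contractile.

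The members cover different steps of this system. *Synpo* encodes synaptopodin, an actin- and alpha-actinin-binding protein best known from kidney podocytes and from dendritic spines of neurons. *Actn1* encodes alpha-actinin 1, the non-muscle form of the protein that cross-links actin filaments. *Acta2* encodes smooth muscle alpha-actin, and *Arhgef2* encodes GEF-H1, an exchange factor for RhoA that is held inactive on microtubules. In FGF1ΔHBS-treated hearts *Synpo* and *Actn1* lay below every vehicle-treated heart, *Acta2* lay above every vehicle-treated heart, and the values of *Arhgef2* overlapped.

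The 250 bases before the RefSeq start of *Acta2* and *Actn1* are shown because *Acta2* is a textbook SRF target and the only member that was higher with FGF1ΔHBS, while *Actn1*, also an actin-linked gene, was lower. The GENCODE location of *Acta2* given below reaches 34255590, so most of its window lies inside the gene as placed there. The sequences are those of RefSeq on GRCm38.p6, minus strand, chr19:34255374-34255623 for *Acta2* and chr12:80260364-80260613 for *Actn1*, and capitals mark the motif matches described next.
Acta2: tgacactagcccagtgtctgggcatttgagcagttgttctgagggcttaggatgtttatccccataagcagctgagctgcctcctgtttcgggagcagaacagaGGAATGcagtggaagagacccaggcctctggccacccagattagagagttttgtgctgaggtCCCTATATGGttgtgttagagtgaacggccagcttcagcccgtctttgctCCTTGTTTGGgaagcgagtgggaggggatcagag
Actn1: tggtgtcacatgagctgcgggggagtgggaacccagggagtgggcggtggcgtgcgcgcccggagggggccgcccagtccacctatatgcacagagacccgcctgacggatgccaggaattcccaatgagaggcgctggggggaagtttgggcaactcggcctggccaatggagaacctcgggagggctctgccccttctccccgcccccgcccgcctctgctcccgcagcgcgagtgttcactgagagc

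The promoter windows of RefSeq held 3 of the members, with 1 window for *Acta2*, 1 for *Actn1* and 4 for the alternative starts of *Arhgef2*. Each window ran from 250 bases before the start to 50 bases after it and was searched on both strands. The strict CArG box was found in 0 of these 6 windows and in 1.63% of the 32851 promoter windows of the same length. A CArG box with 1 G or C among its A and T bases, a form added to the search after the strict form gave no match, occurred in *Acta2* at -84 to -75 and again at -34 to -25 from the start, and 8.50% of all windows held at least 1. The MCAT motif (CATTCC) matched the opposite strand of *Acta2* at -146 to -141, where the printed strand reads GGAATG, and 14.7% of all windows held it. Neither the AP-1 motif (TGANTCA, in 7.81% of all windows) nor the TATA motif (TATAAA, in 13.6%) matched in the 6 windows, and *Actn1* and *Arhgef2* held no match to any of these motifs. A match describes letters in a window and not a bound site.

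Certain facts about the libraries bear on every value. FPKM values do not give read numbers, but the spacing of the lowest values put the depth of every other library between that of vehicle replicate 1 and 1.20 times it. Vehicle replicate 3 stood furthest from its group, with a median absolute difference from the other vehicle libraries of 0.163 on the log2 scale, against at most 0.142 for any other library. It had the highest sum of the leukocyte markers *Ptprc* and *Cd14*, 12.6 FPKM against 3.41 to 5.51 FPKM elsewhere. Vehicle replicate 2 listed *Sln*, a calcium pump regulator abundant in atria, at 27.4 FPKM, whereas the other libraries had 0 to 0.240 FPKM, and it also had the highest *Nppa*. Its FPKM values summed to 152340 over the table, against 215805 to 232837 in the others. The tissue label was matched by cardiac troponin T (*Tnnt2*), at 4346 ± 176 FPKM (SD, n = 3) in vehicle and 4856 ± 334 FPKM (SD, n = 3) in FGF1ΔHBS hearts. The part of these library differences in the results below was not tested, and values without vehicle replicates 2 and 3 are given beside the members.

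*Synpo* (ENSMUSG00000043079) is a protein-coding gene on the minus strand of chromosome 18, from 60593973 to 60660142 in GRCm38 (GENCODE M21, used for all locations). It was at 22.5, 26.1 and 23.2 FPKM in vehicle replicates 1, 2 and 3, and at 15.0, 14.1 and 17.3 FPKM in FGF1ΔHBS replicates 1, 2 and 3. All treated hearts were below all vehicle hearts, and the highest treated value was FGF1ΔHBS replicate 3. The mean was 23.9 ± 1.91 with vehicle and 15.5 ± 1.64 FPKM with FGF1ΔHBS (SD, n = 3 each), a ratio of 0.647. On the log2(FPKM + 1) scale the difference was -0.60 (standard error 0.0966), the 41st lowest of the 2041 genes that averaged 1 FPKM or more. Without vehicle replicate 2 the ratio was 0.678 and without vehicle replicate 3 it was 0.637, and the groups stayed apart in both cases. *Synpo* had the smallest scatter of the members, with a within-group SD of 0.13 on the log2 scale, close to the median of 0.12 over the 200 genes nearest to it in level. The *Synpo* transcript shared 0 of its 5110 stretches of 50 bases with transcripts of other genes.

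*Actn1* (ENSMUSG00000015143), protein-coding, lies on the minus strand of chromosome 12 from 80167547 to 80260371, with 21 exons in its longest transcript. It was at 7.02, 8.28 and 5.68 FPKM in the vehicle replicates and at 4.46, 4.78 and 4.44 FPKM in the FGF1ΔHBS replicates. The groups did not overlap, and the vehicle hearts were spread more widely than the treated hearts. The mean was 6.99 ± 1.30 with vehicle and 4.56 ± 0.194 FPKM with FGF1ΔHBS (SD, n = 3 each), a ratio of 0.652. The log2 difference was -0.51 with a standard error of 0.127. Vehicle replicate 3 held the lowest vehicle value of *Actn1*, and without it the ratio was 0.596. Without vehicle replicate 2, which held the highest, the ratio was 0.719. In the longest *Actn1* transcript, 375 of 3685 stretches of 50 bases (10.2%) also occur in transcripts of other genes, mostly in the antisense genes *Gm47766* (314 stretches) and *Gm47767* (45 stretches). The paralogue *Actn4* shared 16 stretches. The sources used here do not say whether strand was used in counting. Within the shared stretches, reads from *Actn1* and from its antisense partners therefore cannot be told apart.

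*Acta2* (ENSMUSG00000035783), protein-coding, lies on the minus strand of chromosome 19 from 34241090 to 34255590, with 9 exons in its longest transcript. It was the only member with a higher mean after FGF1ΔHBS. It was at 14.1, 12.6 and 10.3 FPKM in the vehicle replicates and at 23.2, 17.5 and 27.3 FPKM in the FGF1ΔHBS replicates. The lowest treated heart, FGF1ΔHBS replicate 2, was above the highest vehicle heart, replicate 1. The mean was 12.3 ± 1.90 with vehicle and 22.7 ± 4.93 FPKM with FGF1ΔHBS (SD, n = 3 each), a ratio of 1.84, and the log2 difference was 0.82 (standard error 0.172). This was the 16th highest difference of the 2041 genes tested. The ratio was 1.86 without vehicle replicate 2, 1.70 without vehicle replicate 3 and 1.65 without FGF1ΔHBS replicate 3. *Acta2* also varied widely within groups, with an SD of 0.26 on the log2 scale against a median of 0.12 over 200 genes of like level. In whole heart tissue, more cells that express *Acta2* and more *Acta2* RNA per cell cannot be told apart.

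Cardiac alpha-actin (*Actc1*), the closely related actin of the sarcomere, was far more abundant, at 4885 ± 573 with vehicle and 4616 ± 621 FPKM with FGF1ΔHBS (SD, n = 3 each). Its groups overlapped, and its log2 difference of -0.084 (standard error 0.145) did not pass the test (adjusted p = 0.821 by limma). *Acta2* amounted to 0.305%, 0.227% and 0.230% of the *Actc1* level in the vehicle replicates and to 0.437%, 0.424% and 0.621% in the FGF1ΔHBS replicates, so the treated hearts were also higher relative to *Actc1*. Of the 1986 stretches of 50 bases in the *Acta2* transcript, 7 (0.352%) occur in another gene, among them gamma-actin (*Actg1*), and none occurs in *Actc1*. These are exact matches only, and the effect of reads aligned with mismatches was not tested.

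*Arhgef2* (ENSMUSG00000028059), protein-coding, lies on the plus strand of chromosome 3 from 88605966 to 88648052, with 23 exons in the longest of its 32 transcripts. It was at 15.9, 13.9 and 9.30 FPKM in the vehicle replicates and at 9.80, 9.94 and 9.95 FPKM in the FGF1ΔHBS replicates. Vehicle replicates 1 and 2 were above all treated hearts, but vehicle replicate 3 was below all of them. The mean was 13.0 ± 3.39 with vehicle and 9.90 ± 0.0836 FPKM with FGF1ΔHBS (SD, n = 3 each), a ratio of 0.759, and the log2 difference of -0.33 had a standard error of 0.173. The difference rested on individual vehicle hearts: it was -0.54 without vehicle replicate 3, where the groups came apart, and -0.18 without vehicle replicate 1. Without vehicle replicate 2 it was -0.28. The treated hearts were nearly equal to each other. The antisense gene *Gm20652* shared 47 of the 4443 stretches of 50 bases in *Arhgef2* (1.06%).

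**Figure D1:**
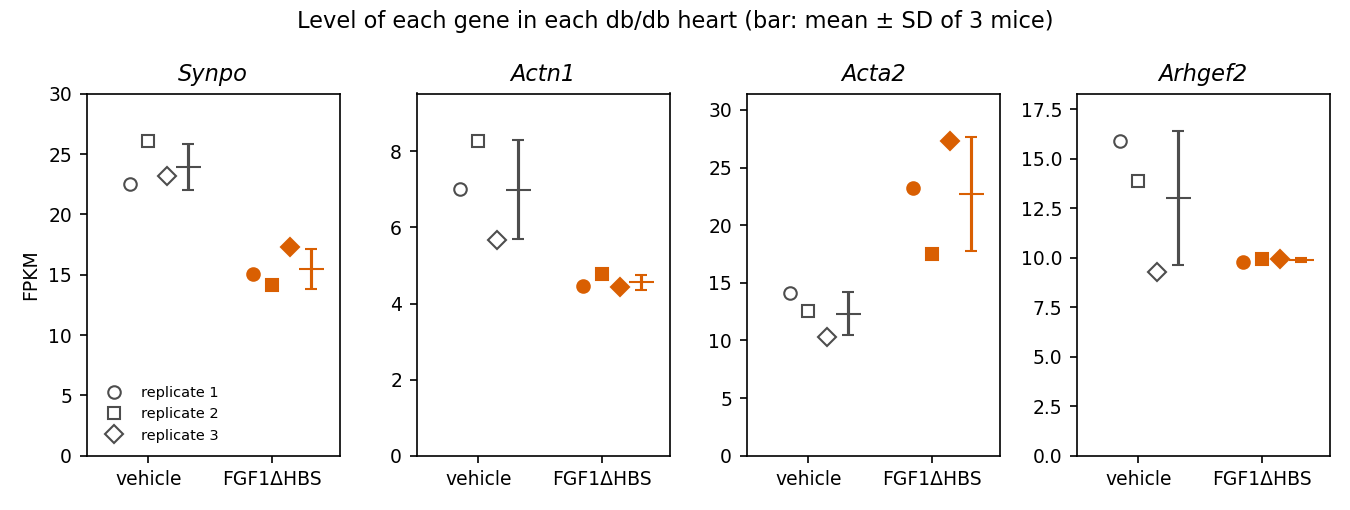
FPKM (vertical axes, each starting at 0) of *Synpo*, *Actn1*, *Acta2* and *Arhgef2* in 3 vehicle (open) and 3 FGF1ΔHBS (filled) hearts, with the shape giving the replicate and the bar the mean ± SD. The treated hearts lie below the vehicle hearts for *Synpo* and *Actn1* and above them for *Acta2*, whereas vehicle replicate 3 puts the lowest point of *Arhgef2* in the vehicle group.

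The order of the 4 levels differed between the groups. With vehicle, *Synpo* was highest, *Arhgef2* and *Acta2* followed with overlapping values, and *Actn1* was lowest. With FGF1ΔHBS, *Acta2* was highest, from 17.5 to 27.3 FPKM, and *Synpo* came next, from 14.1 to 17.3 FPKM, with *Arhgef2* and *Actn1* below them. Within the vehicle group, replicate 3 was the lowest heart for *Actn1*, *Acta2* and *Arhgef2* but not for *Synpo*, and within the FGF1ΔHBS group replicate 2 was lowest for *Synpo* and *Acta2* but highest for *Actn1*. The members therefore did not share 1 order of hearts within groups.

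Of the 4 members, 0 passed an adjusted threshold of 0.05 in limma (Benjamini-Hochberg over the 2041 genes), which 2 genes (0.098%) passed, *Fos* among them. Before adjustment 3 were under 0.05, against 17.1% of all genes tested, and for the same 3 the groups did not overlap, against 24.3%. Because the members were chosen on this contrast, these counts carry no evidence of their own. Of 13 other ways of processing, 10 could change the difference of a member (the filters and the replicate block cannot). Over these the log2 difference ranged from -0.68 to -0.52 for *Synpo*, from -0.63 to -0.40 for *Actn1*, from 0.68 to 0.99 for *Acta2* and from -0.54 to -0.18 for *Arhgef2*.

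**Figure D2:**
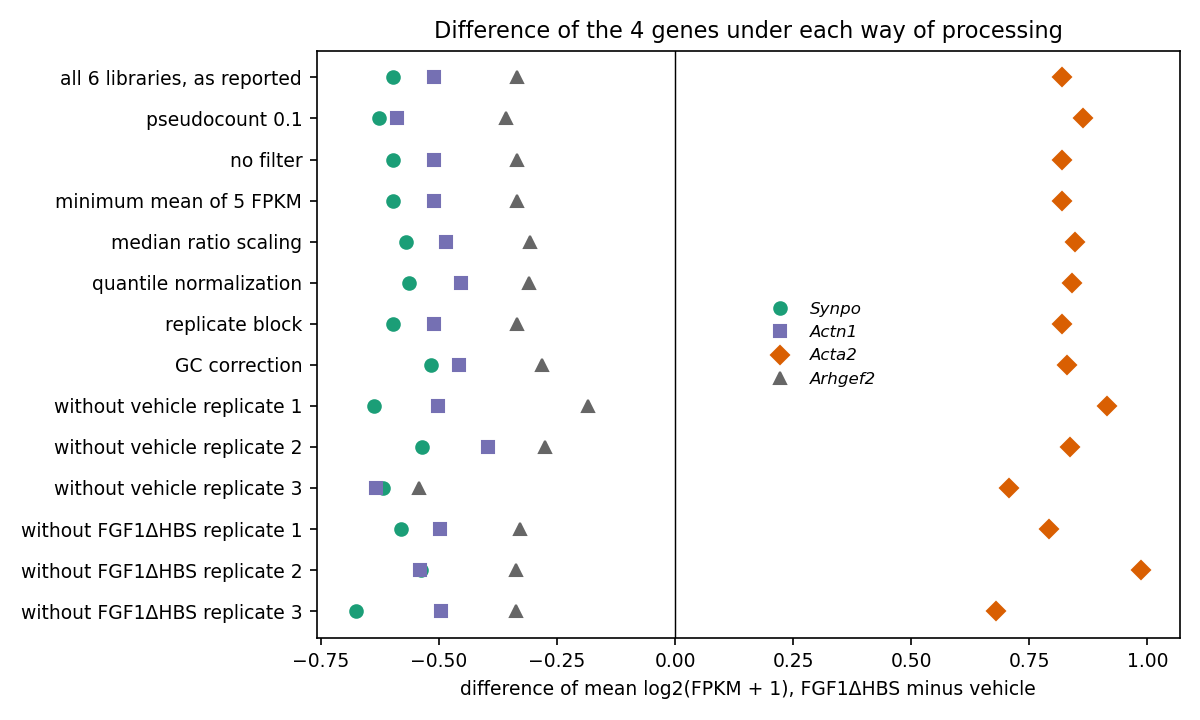
Difference of the mean log2(FPKM + 1), FGF1ΔHBS minus vehicle (horizontal axis), for the 4 genes under the fit as reported and 13 alternatives (rows). Points of *Synpo*, *Actn1* and *Arhgef2* stay left of 0 and those of *Acta2* right of it, and *Arhgef2* moves most, from -0.54 without vehicle replicate 3 to -0.18 without vehicle replicate 1.

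The rest of the actin system was examined through lists of actin-related genes, among them SRF, microtubule and sarcomere genes. The lists named 430 genes besides the members, of which 70 were in the table and 63 had a mean of at least 1 FPKM. Only *Fos* passed an adjusted p-value of 0.05 (1 of 63, against 0.098% of all genes). Before adjustment, 18 of the 63 were lower with FGF1ΔHBS at p under 0.05, where 10% of all genes were, and 2 were higher, where 7.1% of all genes were. That split over all genes, 145 higher and 204 lower, was 182 and 169 with quantile normalization. With GC correction, an alternative chosen after seeing the data, it was 182 and 170. The lists had 3 higher and 18 lower, and 2 and 14, in the same order. They were chosen with earlier results of these data known, so their lean to lower values is a description. For 14 of the 63 every treated heart was below every vehicle heart (13.6% of all genes), and for 3 every treated heart was above (10.7% of all genes). The median log2 difference was -0.15, beside -0.021 over all genes tested, and 51 of the 63 had a difference below 0, beside 54.8% of all genes. Without vehicle replicate 3, 7 of 64 passed the adjusted threshold, all lower, among them *Fos*, *Tns2*, *Coro2b*, *Farp1*, *Nppa* and *Arhgef5*. Without vehicle replicate 2 or any of the FGF1ΔHBS replicates none passed, with 11 to 15 at an unadjusted p-value under 0.05.

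Other cross-linkers and membrane linkers of actin were measured besides *Actn1*. *Plec*, which encodes plectin, a linker of intermediate filaments to actin, was at 17.1 ± 1.47 with vehicle and 12.5 ± 1.16 FPKM with FGF1ΔHBS (SD, n = 3 each) (log2 difference -0.43, adjusted p = 0.116 by limma). Dystrophin (*Dmd*), which ties actin to the membrane, had a higher mean with FGF1ΔHBS, at 24.9 ± 2.45 FPKM against 20.7 ± 0.616 FPKM (SD, n = 3 each; adjusted p = 0.183 by limma). The skeletal muscle paralogue *Actn3* was listed at 0.109 FPKM or less in every library. The sarcomeric *Actn2* and the non-muscle *Actn4* were not analysed here.

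The palladin and synaptopodin families were represented by *Palld* besides *Synpo*. Palladin, a partner of alpha-actinin in stress fibres, was at 32.8 ± 1.23 with vehicle and 29.5 ± 0.610 FPKM with FGF1ΔHBS (SD, n = 3 each), without overlap, and its log2 difference of -0.15 had an adjusted p-value of 0.282 by limma. *Synpo2* and *Synpo2l* were not analysed here. Of the tropomyosins, calponins and transgelins, *Tagln2*, *Cnn2* and *Tpm2* were tested, and in all 3 the groups overlapped. Tropomyosin 2 (*Tpm2*), abundant in smooth muscle, was at 8.52 ± 1.56 and 9.36 ± 2.02 FPKM in the same order (SD, n = 3 each), a log2 difference of 0.11 (adjusted p = 0.802 by limma).

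Among 13 focal adhesion and stress fibre genes tested, 0 passed the adjusted threshold, 4 were lower at an unadjusted p-value under 0.05 (10% of all genes) and none was higher (7.1%). *Parvb*, a partner of integrin-linked kinase, was at 18.3 ± 0.831 with vehicle and 13.9 ± 0.960 FPKM with FGF1ΔHBS (SD, n = 3 each) (log2 difference -0.38, adjusted p = 0.116 by limma). *Tns2* (tensin 2) was at 31.5 ± 3.27 and 22.8 ± 2.22 FPKM (SD, n = 3 each; log2 difference -0.45, adjusted p = 0.116 by limma). Zyxin (*Zyx*), a sensor of tension on stress fibres, was at 22.6 ± 1.85 and 17.4 ± 1.93 FPKM (SD, n = 3 each; log2 difference -0.37, adjusted p = 0.143 by limma). Vinculin (*Vcl*) had the opposite sign, with all treated hearts above all vehicle hearts (log2 difference 0.16, adjusted p = 0.301 by limma).

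Of 8 genes that nucleate, cap or sever filaments, 0 passed and all 8 had a log2 difference below 0 (54.8% of all genes). Cofilin 1 (*Cfl1*), which severs actin filaments, was at 73.4 ± 6.13 with vehicle and 57.9 ± 6.01 FPKM with FGF1ΔHBS (SD, n = 3 each) (log2 difference -0.34, adjusted p = 0.154 by limma). *Coro2b*, a coronin, had a log2 difference of -0.43 (adjusted p = 0.269 by limma) and *Twf2* (twinfilin 2) of -0.18 (adjusted p = 0.453 by limma), both with overlapping groups. Of the myosins, *Myo18a* (-0.15, adjusted p = 0.278 by limma) was apart between the groups and *Myh14* (-0.13, adjusted p = 0.554 by limma) was not.

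Of 7 guanine nucleotide exchange factors tested besides *Arhgef2*, 0 passed the adjusted threshold and 1, *Arhgef5*, had an unadjusted p-value under 0.05 (17.1% of all genes). *Arhgef5* was at 5.51, 6.81 and 5.20 FPKM in the vehicle replicates and at 3.92, 4.21 and 4.01 FPKM in the FGF1ΔHBS replicates, without overlap (log2 difference -0.43, adjusted p = 0.116 by limma). *Farp1*, another exchange factor, was at 2.77, 3.23 and 1.60 FPKM with vehicle and 1.71, 1.52 and 1.60 FPKM with FGF1ΔHBS, again with vehicle replicate 3 at the treated level (adjusted p = 0.310 by limma). *Dock4* (-0.15) was lowest in vehicle replicate 3, whereas *Arhgef6* (-0.0021) and *Arhgef19* (-0.011) were near 0 on the log2 scale. *Dock5* (0.13) and *Spata13* (0.055) had differences above 0, with overlapping groups.

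Microtubule genes are given because GEF-H1 is held on microtubules. Of 4 tested, 0 passed the adjusted threshold and 2 were lower at an unadjusted p-value under 0.05 (10% of all genes). *Mapt*, which encodes tau, was at 13.4 ± 0.234 with vehicle and 9.88 ± 1.81 FPKM with FGF1ΔHBS (SD, n = 3 each) (adjusted p = 0.154 by limma). *Tubb2b*, a beta-tubulin, was at 4.39 ± 0.542 and 2.79 ± 0.739 FPKM (SD, n = 3 each; adjusted p = 0.156 by limma). *Tuba1a*, an alpha-tubulin, was at 56.1, 55.5 and 24.0 FPKM in the vehicle replicates, a range wider than that of the treated hearts (26.3 to 41.4 FPKM).

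Of 9 SRF-related genes tested besides *Acta2*, *Fos* fell. The log2 difference was below 0 in 7, *Fos* included (54.8% of all genes), and above 0 in 2 (*Dmd* and *Vcl*). Before adjustment 4 were lower at p under 0.05 (10% of all genes) and 1 was higher (7.1%). *Fos*, an immediate-early transcription factor gene with SRF-binding elements, was at 10.0 ± 4.10 with vehicle and 0.792 ± 0.305 FPKM with FGF1ΔHBS (SD, n = 3 each), lower in 3 of 3 treated mice (log2 difference -2.56, standard error 0.290, adjusted p = 0.0441 by limma). It stayed under the threshold in 5 of 15 alternatives, over which its adjusted p-value lay between 0.00908 and 0.216. *Acta2* and *Fos*, both textbook SRF targets, thus differed in opposite directions. The stretch-responsive gene *Ankrd1* was at 680, 801 and 401 FPKM in the vehicle replicates and at 435, 231 and 435 FPKM in the FGF1ΔHBS replicates (adjusted p = 0.288 by limma).

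Of 7 sarcomere genes tested, 0 passed the adjusted threshold, with 4 at an unadjusted p-value under 0.05, where 17.1% of all genes were. *Nebl* (nebulette, a Z-disc actin-binding protein) was higher in every treated heart, at 56.4 ± 4.77 against 46.3 ± 1.93 FPKM (SD, n = 3 each; adjusted p = 0.153 by limma). *Xirp2*, which binds actin at intercalated discs, was at 31.1 ± 5.91 with FGF1ΔHBS and 45.9 ± 7.85 FPKM with vehicle (SD, n = 3 each; adjusted p = 0.154 by limma). *Ldb3*, a Z-disc partner of alpha-actinin, was at 265 ± 10.8 and 330 ± 47.5 FPKM in the same order (SD, n = 3 each; adjusted p = 0.230 by limma).

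**Figure D3:**
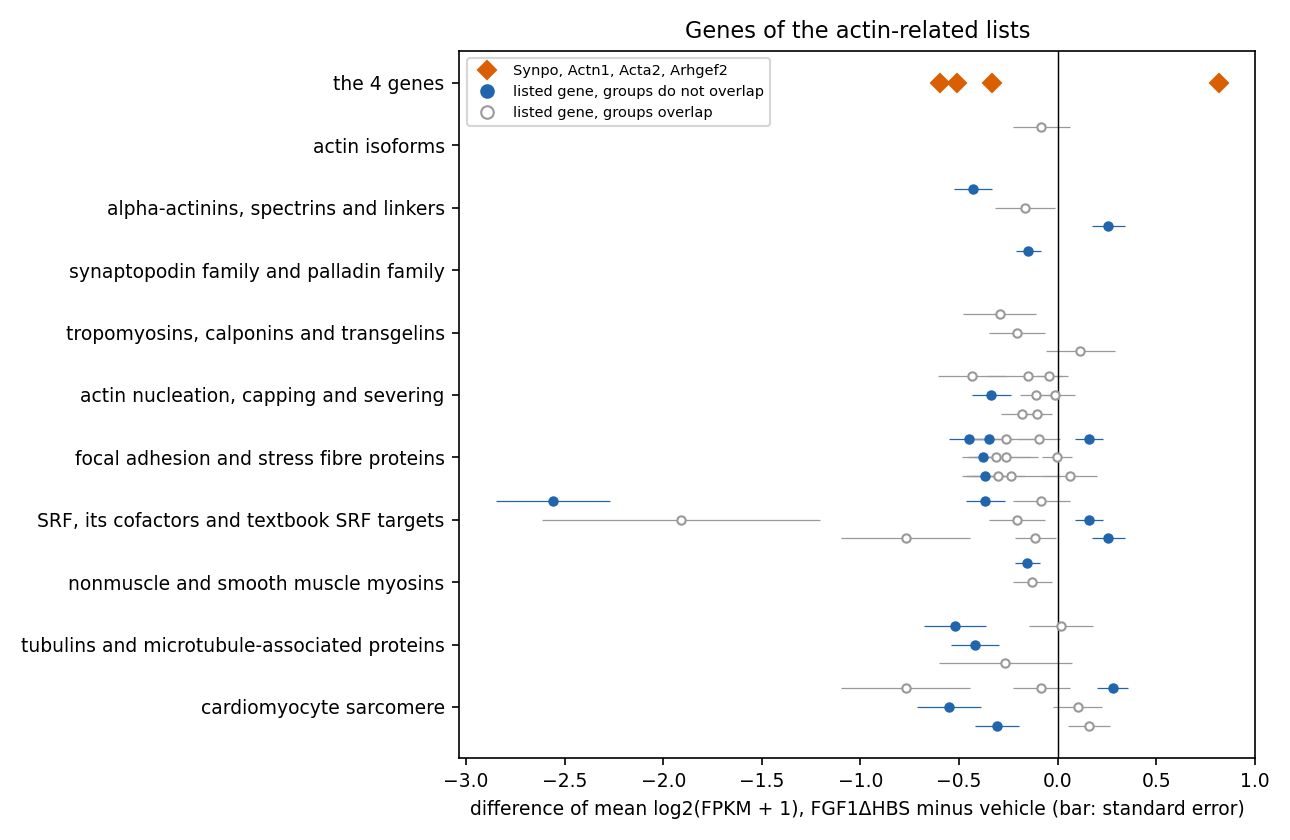
Difference of the mean log2(FPKM + 1), FGF1ΔHBS minus vehicle (horizontal axis, bars give the standard error), for the 4 genes (orange diamonds, top row) and for tested genes of 10 actin-related lists (rows), with genes of several lists drawn in each. Blue points are genes whose groups do not overlap, most points lie left of 0, *Fos* is furthest left at -2.56, and *Acta2* is furthest right at 0.82.

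Markers of the cell types that a heart sample could hold were set beside the members, with 25 marker genes in the table and 15 tested. By limma 0 passed the adjusted threshold, and 4 had an unadjusted p-value under 0.05, as did 17.1% of all genes. Decorin (*Dcn*), a proteoglycan of fibroblasts, had a higher level in every treated heart, as *Acta2* did, at 284, 288 and 154 FPKM in the vehicle replicates and at 409, 368 and 431 FPKM in the FGF1ΔHBS replicates (log2 difference 0.79, or 0.49 without vehicle replicate 3, adjusted p = 0.154 by limma). The other fibroblast-list genes, *Vim* (0.12) and *S100a4* (0.13), overlapped, and the summed level of the 3 was 254 to 440 FPKM with vehicle and 462 to 583 FPKM with FGF1ΔHBS. *Dcn* made up most of that sum in every library, so it is no measure of fibroblasts beyond *Dcn*. Of the smooth muscle and pericyte list, 2 of 26 markers were in the table besides *Acta2*: *Pdgfrb*, a pericyte receptor (-0.21), and *Casq2* (-0.12), which cardiomyocytes also express, both with overlapping groups. Their sum, 360 to 408 FPKM with vehicle and 341 to 376 FPKM with FGF1ΔHBS, was nearly all *Casq2* and so is no measure of smooth muscle or pericytes. *Pdgfrb* alone was at 13.5, 12.3 and 8.34 FPKM in the vehicle replicates and at 9.55, 8.84 and 10.3 FPKM in the FGF1ΔHBS replicates. The defining smooth muscle genes *Myh11*, *Cnn1* and *Tagln*, and the matrix genes *Postn* and *Col1a1*, were not analysed here, so *Acta2* could not be set against them.

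The endothelial gene *Esam* was lower in every treated heart (log2 difference -0.33, adjusted p = 0.154 by limma), whereas *Tie1*, *Emcn* and *Plvap* overlapped, and the 4 summed to 54.9 to 93.5 FPKM with vehicle and 52.8 to 79.8 FPKM with FGF1ΔHBS. The leukocyte markers *Cd14* (-0.77) and *Ptprc* (-0.54) were also lower in every treated heart, with adjusted p-values of 0.230 and 0.298 by limma. Without vehicle replicate 3, which had the highest level of both, the log2 differences were -0.42 and -0.26. The atrial list held *Nppa*, with 170, 431 and 62.2 FPKM in the vehicle replicates and 75.4, 22.7 and 47.4 FPKM in the FGF1ΔHBS replicates (adjusted p = 0.231 by limma), and *Sln*. *Hbb-bt*, from red blood cells, summed to 192 to 397 FPKM with vehicle and 118 to 204 FPKM with FGF1ΔHBS, and the nerve markers *Pmp22* and *Prx* to 20.8 to 30.8 FPKM and 22.9 to 27.0 FPKM. *Slc12a1*, the kidney marker in the table, was at 0.844 FPKM or less, the 4 skeletal muscle markers summed to at most 1.49 FPKM, and the 3 mesothelial markers to at most 2.19 FPKM. The fat cell gene *Adipoq* was at 0, 0.217 and 0 FPKM in the vehicle replicates and at 1.21, 0.246 and 0.648 FPKM in the FGF1ΔHBS replicates, so it too was higher in every treated heart, at levels too low for the test. Without vehicle replicate 3, 3 markers of 15 passed the adjusted threshold, *Dcn* higher and *Nppa* and *Esam* lower, where 84 of 2046 passed over all genes. The part of cell composition in the values of the 4 members was not tested.

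The genes most like each member were taken by the root mean square difference of the log2 values over the 6 libraries, each gene centred on its own mean. For *Synpo* they were *Plxna2*, a semaphorin receptor (0.0626), the pseudogene *Gm7609* (0.0701) and *Reep6*, a protein that shapes the endoplasmic reticulum (0.0794), beside a median of 0.330 over all genes tested. *Plxna2* was at 5.97, 7.34 and 5.98 FPKM in the vehicle replicates and at 4.30, 3.48 and 4.46 FPKM in the FGF1ΔHBS replicates, with the hearts of each group in the same order as for *Synpo*. For *Actn1* they were *Agrn*, which encodes the heparan sulfate proteoglycan agrin (0.0621), *Cd55*, a regulator of complement (0.0676), and *Arhgef5* (0.0708). *Agrn* was at 18.4, 19.9 and 14.8 FPKM and at 11.4, 13.4 and 12.8 FPKM in the vehicle and FGF1ΔHBS replicates.

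For *Acta2* the nearest genes were less close, *Gm4956* (0.127), *Rcn3*, a calcium-binding protein of the secretory pathway (0.149), and *Enpp2*, the secreted enzyme that makes lysophosphatidic acid (0.164). *Enpp2* was at 4.50, 4.03 and 2.34 FPKM in the vehicle replicates and at 6.44, 6.61 and 8.91 FPKM in the FGF1ΔHBS replicates, so vehicle replicate 3 was lowest and FGF1ΔHBS replicate 3 highest, as for *Acta2*. For *Arhgef2* they were *Tdrd7* (0.0580), *Coro2b* (0.0784) and the collagen receptor *Itga1* (0.0827), all with vehicle replicate 1 highest and vehicle replicate 3 near the treated hearts. Among the members, *Synpo* and *Actn1* were nearest to each other (0.153), followed by *Actn1* and *Arhgef2* (0.169), and *Acta2* was 0.612 or more from every other member. These likenesses rest on 6 libraries that include the contrast used to choose the members.

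**Figure D4:**
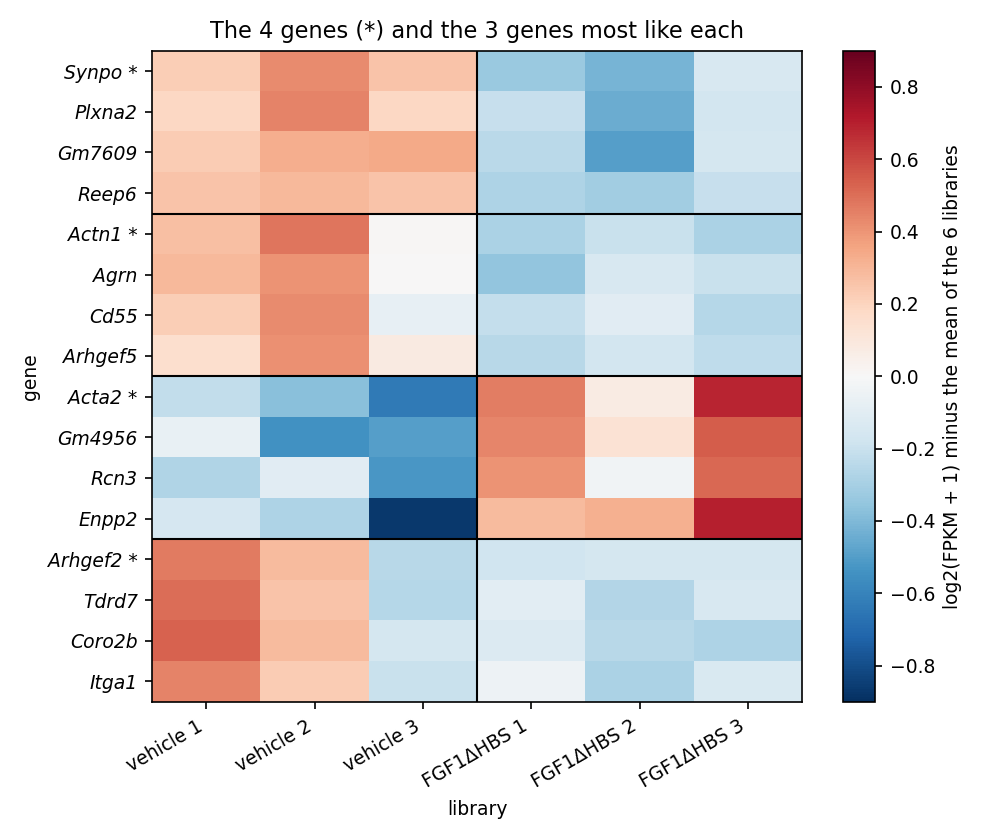
Colour gives log2(FPKM + 1) minus the mean of the 6 libraries for the 4 genes (asterisks) and the 3 genes most like each (rows), in 3 vehicle and 3 FGF1ΔHBS libraries (columns). *Synpo* and *Actn1* with their nearest genes are higher in vehicle hearts and *Acta2* with its nearest genes in FGF1ΔHBS hearts, whereas in the *Arhgef2* block vehicle replicate 3 has the colour of the treated hearts.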

How the data were processed

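Per the study, reads were cleaned with Trimmomatic, and the authors deposited an FPKM value for each gene in each library. The submitters' processing notes also name Bowtie 0.12.2, HISAT2 2.0, StringTie 1.3.0 and the build mm8, without roles. The gene loci in the file match GRCm38, since 4109 of the 4111 genes found in GENCODE M21 overlap their GRCm38 position and 2784 start within 10 bases of it, so GRCm38 locations are given. Single-end reads are described in the study and paired-end libraries in the labels, whose library text mentions adipose tissue although the tissue is labelled heart. The table ends within the text of its last gene and holds part of a transcriptome.

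Tests used log2(FPKM + 1), a scale that understates changes of low genes. The 2041 genes averaging 1 FPKM or more were fitted with limma 3.58.1 in R 4.3.3 (eBayes with trend, unpaired as in the study's statistics), two-sided, with Benjamini-Hochberg adjustment and a threshold of 0.05. Alternatives were another pseudocount, other filters, scalings and eBayes settings, a replicate block, GC correction and leaving out each mouse. The members and the gene lists were chosen with earlier results of these data known. Genes named are the members, the paralogues in the table, genes past the threshold or else the 3 smallest p-values in each list, defining markers, the 3 genes most like each member, and genes singled out after their values were seen, such as *Vcl*, *Ankrd1*, *Arhgef6*, *Arhgef19*, *Emcn* and *Prx*. Some listed genes are not reported here. The labels number 3 replicates per group and the study gives 3 mice per group, so p-values measure the spread between mice.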

Additional observations from a re-analysis of the deposited data

How the results depend on the processing

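The log2 differences of *Synpo*, *Actn1*, *Acta2* and *Arhgef2* can change under 10 alternatives, whereas the filters and the replicate block cannot change them. With a pseudocount of 0.1, median ratio scaling, quantile normalization and GC correction, the differences moved by less than the spread between mice (1 SD). The rest of the 10 each leave out a mouse. In groups of this size that cannot move a difference by 1 SD, so this measure does not test them. With a mouse left out, the difference of *Arhgef2* ran from -0.54 to -0.18. Over all genes, 2 passed the adjusted threshold of 0.05. The count was 4 with a pseudocount of 0.1, 5 with robust eBayes, 1 with median ratio scaling, quantile normalization, eBayes without trend or GC correction (an alternative chosen after seeing the data), and 0 without a filter, with 488 genes under 0.05 before adjustment. For the actin-related lists the number was 1. It was 0 without a filter, with median ratio scaling, quantile normalization, eBayes without trend and GC correction, with 16 to 21 genes under 0.05 before adjustment. The cause was not tested.

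When mice were left out singly, the counts ran from 0 to 84 over all genes, from 0 to 7 over the actin-related lists and from 0 to 3 over the cell type markers, and the highest of each came without vehicle replicate 3. Before adjustment 145 genes under 0.05 were higher and 204 lower, against 185 and 180 with median ratio scaling; over the actin-related lists the split was 2 and 18 against 3 and 15. Under a replicate block 0 genes passed over all genes (269 at an unadjusted p-value under 0.05) and 0 over the lists (16). The deviations of mice that share a number had correlations across genes of -0.0078, -0.16 and -0.22. Mice with different numbers were not compared in this way, so whether a number marks a pair was not tested. Depth is known only relative to vehicle replicate 1, and a value of 0 has no stated detection limit.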

Other observations

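Genes outside the lists whose descriptions name actin, myosin or a LIM domain were looked at after the data were seen. Of the 14 found, 8 were tested, and 1 (*Mprip*) had an unadjusted p-value under 0.05 and groups that did not overlap, fewer than the 17.1% and 24.3% of all genes; by limma 0 passed the adjusted threshold. *Mprip* ties myosin phosphatase to actin filaments. It was at 39.1, 39.0 and 32.7 FPKM in the vehicle replicates and at 32.1, 28.1 and 30.3 FPKM in the FGF1ΔHBS replicates, so every treated heart was below every vehicle heart (log2 difference -0.28, adjusted p = 0.188 by limma). *Lmo7*, an actin- and emerin-binding protein, was at 78.2, 81.1 and 91.6 FPKM with vehicle and 90.1, 99.2 and 90.7 FPKM with FGF1ΔHBS, with overlapping groups (log2 difference 0.16, adjusted p = 0.370 by limma). *Mical1*, which oxidises actin, was at 6.05, 3.84 and 2.78 FPKM and at 3.50, 2.76 and 3.35 FPKM in the same order, with the vehicle hearts in the order seen for *Arhgef2* (adjusted p = 0.574 by limma).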
